A study of Mus musculus with 768 samples.

Results

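S1pr5 cells were the tumor-infiltrating NK cells in which the transcript of S1pr5 was found and those of Cxcr6 and Itga1 were not. They were chosen by the level of these 3 transcripts in single cells: a cell was taken when S1pr5 stood above 0 RPKM (reads scaled by gene length and by the mapped reads of the well) and Cxcr6 and Itga1 both stood at 0, among wells with 1000 to 3500 detected genes. Of the sorted wells, 726 lay within these limits, 360 of them WT and the rest PD-1-/-, and 71 WT and 72 PD-1-/- cells were S1pr5 cells. The cells they were compared with, called comparison cells here, were the kept cells with none of the 3 transcripts, 63.9% of the kept WT and 45.6% of the kept PD-1-/- cells. All cells came from MTAP1A tumors, which C57BL/6 mice had grown from an injected fibrosarcoma line whose donor mouse lacked Tap1, and were sorted as viable NK1.1+ cells, by a gate that left out CD3+ and GR1+ cells among others, into SMART-SEQ2 plates, which read full-length transcripts without molecular identifiers. One plate held pooled cells of 3 WT mice and the other those of 3 PD-1-/- mice, whose Pdcd1 allele lacks the part that spans exons 3 and 4. Each genotype was therefore 1 pool on 1 plate. Genotype cannot be told apart from plate, and cells of a pool are not replicates, so that no p-value was computed. The intervals given are exact binomial (Clopper-Pearson) 95% intervals, which cover counting error only. Where Pdcd1, Cma1 or Cx3cr1 was found in 0 cells, the share that 3 cells would make is given as the limit, with the upper bound of the exact interval beside it. The labels give neither the age of the mice nor the animal a cell came from.

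Sphingosine 1-phosphate is abundant in blood and lymph and scarce in tissue, and lymphocytes that carry receptors for it follow this gradient out of bone marrow and other organs. S1pr5 encodes the receptor that mature NK cells use for this purpose. Klf2 encodes a zinc finger factor that keeps lymphocytes quiescent and circulating, and Itgam encodes CD11b, the integrin subunit whose appearance marks the last steps of NK cell maturation in the mouse. Cxcr6, a chemokine receptor, and Itga1, the collagen-binding integrin subunit CD49a, are known from tissue-resident NK cells and innate lymphoid cells of group 1 (ILC1). The rule thus set cells apart by transcripts known from circulating-type and from resident-type cells. Whether the cells circulated was not measured.

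The S1pr5 cells made up 19.7% of the kept WT cells (95% interval 15.7 to 24.2%) and 19.7% of the kept PD-1-/- cells (15.7 to 24.1%). The 2 shares differed by less than their counting error. They were spread over the plates, with 19.7% and 19.8% of the kept WT cells in rows A to H and I to P and 19.02% and 20.3% of the kept PD-1-/- cells. On the WT plate the depths were close: reads recovered from the RPKM steps (the RPKM worth of 1 read in each well) had a median of 270126 in S1pr5 cells and 268959 in comparison cells and the median number of detected genes was 2210 and 2246. On the PD-1-/- plate the S1pr5 cells had more reads, 308872 against 271516, and fewer detected genes, 2076 against 2271. Over all kept wells the recovered reads ran from 1120 to 424833 on the WT plate and from 1632 to 472660 on the PD-1-/- plate, and 3 WT and 3 PD-1-/- S1pr5 cells had under 100000.

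Pdcd1, the gene deleted in PD-1-/- mice, was found in 0 of 71 WT S1pr5 cells, which allows a share of up to 4.23% by the 3-cell limit and 5.06% by the exact interval, and in 2 of 72 PD-1-/- S1pr5 cells. Its share in S1pr5 cells differed from that in comparison cells by 0 percentage points in WT and by -3.81 points in PD-1-/-. The absence of Pdcd1 was therefore not particular to the WT S1pr5 cells. In cells with Cxcr6 or Itga1 and no S1pr5, it was found in 18.4% of the WT and 29.2% of the PD-1-/- cells. The values are per gene and not per exon, so that reads from the part of Pdcd1 that the allele keeps count as Pdcd1, and they do not check the deletion.

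At least 1 of 8 NK-like markers was found in every S1pr5 cell. The same held for every comparison cell and every cell with Cxcr6 or Itga1 and no S1pr5. Each of the 8 was found among S1pr5 cells of both plates. Their summed level ran from 3716 to 49141 RPKM in WT and from 8693 to 79634 RPKM in PD-1-/- S1pr5 cells. Klrb1c, which encodes the NK1.1 antigen used in the sort, was present in all 71 and all 72 S1pr5 cells. Transcripts of the CD3 complex (Cd3d, Cd3e or Cd3g) occurred in 9 WT and 9 PD-1-/- S1pr5 cells, 12.7% and 12.5%, against 13.5% and 17.4% of the comparison cells, and Cd4, Cd5, Cd8a, Cd8b1 and Themis were at 0 in the S1pr5 cells of both plates. These zeros were not particular to S1pr5 cells, since the shares differed from those of comparison cells by 0 to -2.99 percentage points. For 0 of 71 WT cells the limits are those given above for Pdcd1. The summed level of all 10 T-like markers reached 4729 RPKM in WT and 861 RPKM in PD-1-/- S1pr5 cells. At least 1 of 5 myeloid-like markers was found in 14.1% of the WT and 9.72% of the PD-1-/- S1pr5 cells, with a summed level of at most 1438 RPKM, while neutrophil-like, B-like and fibrosarcoma-like markers were each found in at most 4 S1pr5 cells of a plate. At least 1 of 5 cycling-like markers was found in 19.7% and 15.3% of the S1pr5 cells, against 17.8% and 23.4% of the comparison cells. Without the cells with CD3 transcripts 8 genes were higher, 0.159% of those compared, against the 5 (0.0979%) described below. Without those with Mki67 or Top2a 5 were higher (0.0994%). In each case 4 of the 5 described below were counted again. Of the 23 lower genes described below, 14 were counted again without the CD3 cells and 11 without the Mki67 or Top2a cells. The part of the myeloid-like transcripts was not tested.

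S1pr5 itself, whose level chose the cells and is given as a description, ran from 0.904 to 1101 RPKM in the WT S1pr5 cells with a median of 177.2. In the PD-1-/- S1pr5 cells it ran from 0.795 to 989.5 RPKM with a median of 150.02. Most cells were far from the limit of the rule: 61 of 71 WT and 59 of 72 PD-1-/- cells held at least 10 recovered S1pr5 reads, whereas 3 and 7 rested on 1 read. Just inside the limit stood 3 WT cells with 0.904, 1.06 and 1.09 RPKM of S1pr5, and just outside stood S1pr5-bearing cells left out for as little as 1.17 RPKM of Cxcr6 (WT) or 0.536 RPKM of Itga1 (PD-1-/-). The S1pr5 cells had 1504 to 3235 detected genes on the WT and 1281 to 3463 on the PD-1-/- plate, and of the wells outside the gene limits, 24 WT and 18 PD-1-/-, 1 and 0 held S1pr5.

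S1pr5 and the 2 resident-type transcripts were found together in few cells. Of 81 kept WT cells with S1pr5, 10 also had Cxcr6 or Itga1, 12.3% (6.08 to 21.5%), and of 93 such PD-1-/- cells 21 did, 22.6% (14.6 to 32.4%). Among kept cells without S1pr5 the shares were 17.6% (13.3 to 22.5%) in WT and 38.8% (33.01 to 44.9%) in PD-1-/-. On the PD-1-/- plate the 2 intervals did not overlap, and on the WT plate they did. Taken gene by gene on the PD-1-/- plate, Cxcr6 was found in 10.8% of cells with and 24.5% of cells without S1pr5, and Itga1 in 12.9% and 28.6%. The 10 WT and 21 PD-1-/- cells that held S1pr5 beside a resident-type transcript are not among the S1pr5 cells described here.

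The promoters of the receptor, of the 2 other genes named with it and of Klf3, a second Krüppel-like factor gene of the results below, are shown because KLF and T-box factors are known regulators of NK cell circulation and maturation. Each run is the 250 bases before the gene's start in RefSeq (GRCm38.p6), on the strand of the gene and read 5′ to 3′, and capitals mark the letters CCACCC or their reverse complement GGGTGG, a KLF-type motif.
S1pr5 (chr9:21248444-21248693, - strand): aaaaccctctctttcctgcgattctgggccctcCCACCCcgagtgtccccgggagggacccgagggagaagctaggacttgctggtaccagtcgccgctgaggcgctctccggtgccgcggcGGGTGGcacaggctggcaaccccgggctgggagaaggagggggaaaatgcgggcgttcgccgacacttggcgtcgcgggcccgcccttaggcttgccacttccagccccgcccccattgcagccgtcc
Itgam (chr7:128062390-128062639, + strand): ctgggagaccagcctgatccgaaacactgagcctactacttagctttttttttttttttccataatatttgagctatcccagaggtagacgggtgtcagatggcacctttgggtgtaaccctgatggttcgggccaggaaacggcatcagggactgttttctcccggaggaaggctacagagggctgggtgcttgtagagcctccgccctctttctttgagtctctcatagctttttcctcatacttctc
Klf2 (chr8:72318812-72319061, + strand): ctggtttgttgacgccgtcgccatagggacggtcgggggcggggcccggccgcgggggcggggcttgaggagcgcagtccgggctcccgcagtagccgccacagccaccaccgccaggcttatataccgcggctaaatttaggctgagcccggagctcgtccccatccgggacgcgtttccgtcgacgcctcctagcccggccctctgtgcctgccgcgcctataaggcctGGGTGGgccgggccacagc
Klf3 (chr5:64803271-64803520, + strand): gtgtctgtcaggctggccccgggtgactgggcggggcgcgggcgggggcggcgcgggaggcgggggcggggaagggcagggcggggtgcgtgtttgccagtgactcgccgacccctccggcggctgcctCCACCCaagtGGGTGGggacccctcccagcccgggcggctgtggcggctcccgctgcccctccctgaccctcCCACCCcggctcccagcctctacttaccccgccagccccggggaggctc
The KLF-type letters stood in the S1pr5 window at 2 places, in the Klf2 window at 1 and in the Klf3 window at 3, and were not in the Itgam window. They are common, since 27.7% of 27025 RefSeq windows of this length hold them on either strand. A T-box motif (TCACACC, or GGTGTGA on the other strand), held by 3.31% of all windows, and a RUNX motif (TGTGGT or ACCACA), held by 14.2%, were in none of the 4. These are matches of letters, not sites, and the motifs do not overlap each other here.

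Itgam and Klf2, which the rule did not use, were both found more often and at higher levels in S1pr5 cells than in comparison cells of the same plate. CD11b transcript (Itgam) was found in 19 of 71 WT S1pr5 cells, 26.8% (95% interval 16.9 to 38.6%), where it ran from 4.56 to 480.3 RPKM with a median of 165.99, and in 15.2% of the WT comparison cells (10.8 to 20.5%). In PD-1-/- it was found in 29 of 72 S1pr5 cells, 40.3% (95% interval 28.9 to 52.5%), and in 15.6% of the comparison cells (10.4 to 21.97%). The intervals were apart on the PD-1-/- plate and overlapped on the WT plate, and the mean level was higher on both, 45.8 against 13.5 RPKM in WT and 52.5 against 15.6 RPKM in PD-1-/-, a log2 ratio of 1.69 on the WT plate and 1.69 on the PD-1-/- plate. Klf2 was found in 42 of 71 WT S1pr5 cells, 59.2% (95% interval 46.8 to 70.7%), at 3.86 to 475 RPKM with a median of 119.1, against 40.9% of the comparison cells (34.5 to 47.5%). In PD-1-/- the shares were 51.4% (95% interval 39.3 to 63.4%) and 37.7% (30.4 to 45.5%), and the mean level was 129.1 against 53.1 RPKM. The share intervals of Klf2 overlapped on both plates. Its log2 ratio was 0.82 on the WT plate, short of 2-fold, and 1.27 on the PD-1-/- plate. After each cell was thinned to 100000 recovered reads, Itgam was found in 26.5% of WT S1pr5 and 14.4% of WT comparison cells and in 36.2% and 14.6% of the PD-1-/- cells, and Klf2 in 58.8%, 39.2%, 50.7% and 38.2% in the same order.

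The markers did not mark every S1pr5 cell. Both Itgam and Klf2 were found in 14.1% of the WT and 18.1% of the PD-1-/- S1pr5 cells, Klf2 without Itgam in 45.1% and 33.3%, Itgam without Klf2 in 12.7% and 22.2%, and neither in 28.2% and 26.4%. Neither was found in 50.9% of the WT and 53.3% of the PD-1-/- comparison cells. The 4 combinations were thus all present among S1pr5 cells of both plates, and the cells with neither marker were fewer than among comparison cells.

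**Figure D1:**
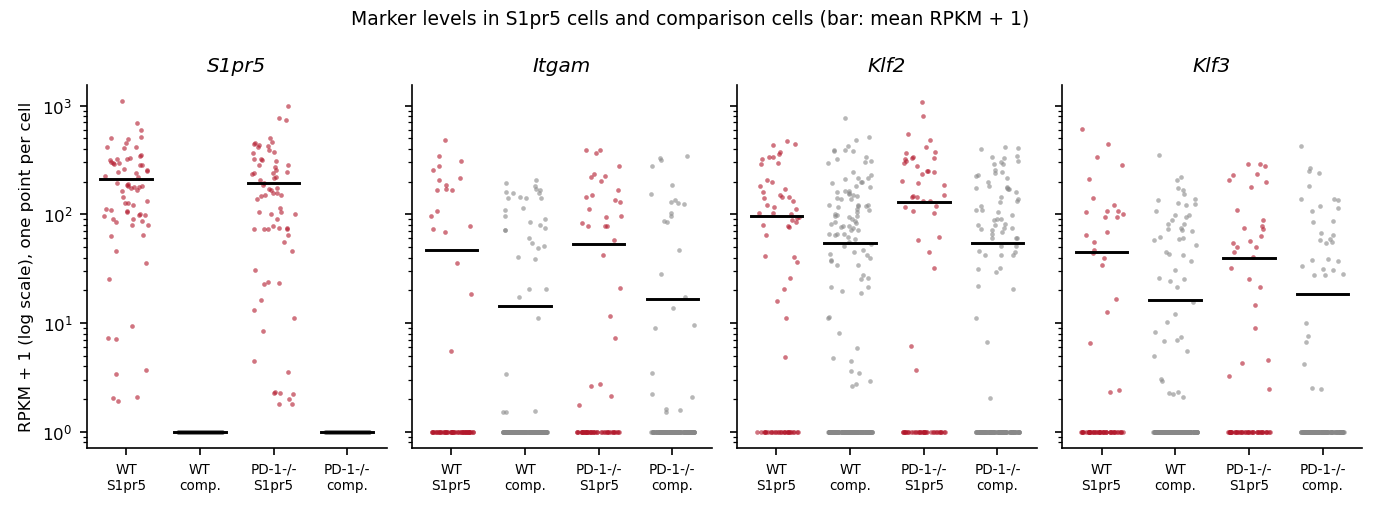
RPKM + 1 (log axis) of S1pr5, Itgam, Klf2 and Klf3 in each S1pr5 cell (red) and comparison cell (gray) of the WT and PD-1-/- plates, with black bars at the mean RPKM + 1; points at 1 are cells without the transcript. Itgam means stood at 45.8 and 52.5 RPKM in S1pr5 cells and at 13.5 and 15.6 RPKM in comparison cells, with many cells of each kind at 0.

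Across all genes, few differed by 2-fold between S1pr5 and comparison cells on both plates. Of 5109 genes compared, which averaged 10 RPKM or more and occurred in 10% or more of S1pr5 and comparison cells combined on each plate, 5 had at least a 2-fold higher mean (log2 of mean RPKM + 1) and a higher share in S1pr5 cells on both plates, which is 0.0979% of the genes compared, and 23 had at least a 2-fold lower mean and a lower share, which is 0.450%. On 1 plate alone 1.41% of the genes were that much higher and 3.95% lower in WT and 2.47% and 5.46% in PD-1-/-, and 16 genes were past 2-fold in opposite directions on the 2 plates. The median log2 ratio over all genes compared was -0.02 in WT and -0.03 in PD-1-/-. Without replicate pools these counts could not be set against a replicate error, and a gene found in 1 cell of 10 rests on a handful of S1pr5 cells, so that a single gene in them is a description of these cells.

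**Figure D2:**
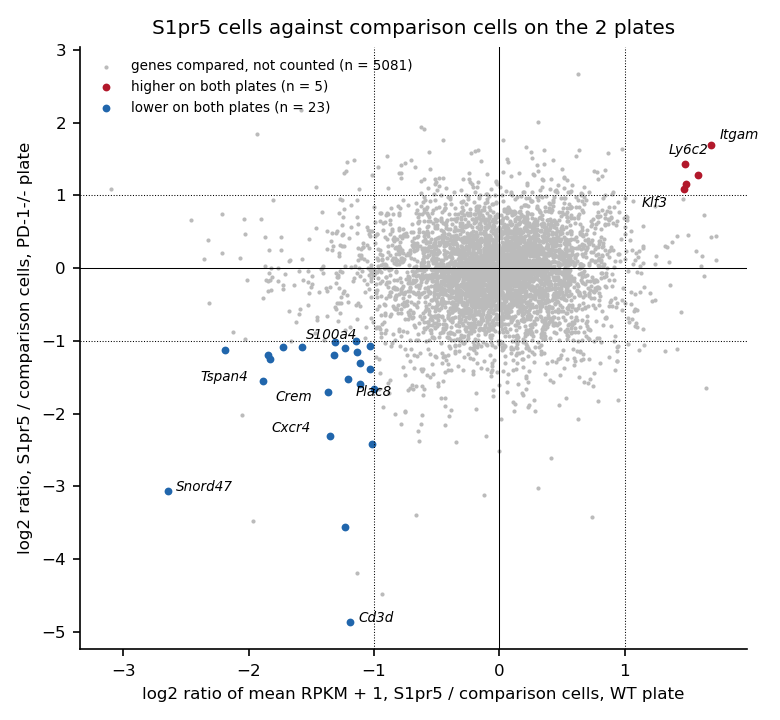
Log2 ratio of mean RPKM + 1, S1pr5 over comparison cells, on the WT plate (horizontal) and the PD-1-/- plate (vertical) for the 5109 genes compared, one point per gene; dotted lines mark 2-fold. The 5 genes higher on both plates (red) and the 23 lower on both (blue) lie at the 2 corners of a cloud centered near 0.

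The 5 higher genes were Itgam, Ly6c2, 2010012O05Rik, Cpsf2 and Klf3. Ly6c2, which encodes the Ly6C surface protein of memory-type and mature lymphocytes, was found in 32.4% against 15.7% of S1pr5 and comparison cells in WT and in 33.3% against 20.96% in PD-1-/-, with mean levels of 724 against 257.99 RPKM and 983 against 364.4 RPKM. Reads of Ly6c2 could be shared with its near copy Ly6c1, so its level is uncertain. Klf3, a repressor of the same factor family as Klf2, was found in 35.2% (95% interval 24.2 to 47.5%) of the WT and 40.3% (95% interval 28.9 to 52.5%) of the PD-1-/- S1pr5 cells, against 22.2% and 20.4% of the comparison cells, and its log2 ratio was 1.47 on the WT plate and 1.09 on the PD-1-/- plate. The uncharacterized 2010012O05Rik had mean levels of 54.8 against 17.6 RPKM in WT and 54.2 against 21.8 RPKM in PD-1-/-, and Cpsf2, a subunit of the complex that cleaves pre-mRNA 3′ ends, 32.99 against 11.1 RPKM and 25.4 against 10.8 RPKM. The share intervals of these 4 genes overlapped between the 2 kinds of cells on at least 1 plate each.

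Genes of mature CD11b+ NK cells were higher as a group. Of 18 genes on that list, Itgam among them, 16 could be compared, and 13 had a higher mean in S1pr5 cells on both plates, 0 a lower mean on both and 3 opposite directions, with a median log2 ratio of 0.36 on the WT plate and 0.45 on the PD-1-/- plate. Of all genes compared, 24.8% were higher and 29.9% lower on both plates. Klrg1, an inhibitory lectin receptor of terminally mature NK cells, was found in 21.1% against 12.2% of the WT and 27.8% against 12.6% of the PD-1-/- S1pr5 and comparison cells, with mean levels of 70.5 against 38.2 RPKM and 202.6 against 66.9 RPKM. S1pr5 cells with Klrg1 were the more frequent on both plates, and the share intervals overlapped. Cma1, a mast cell chymase gene that mature NK cells also transcribe, was found in 27.8% (95% interval 17.9 to 39.6%) of the PD-1-/- S1pr5 cells and 4.19% of the comparison cells (1.70 to 8.45%), intervals that lay apart. In WT the same shares were 15.5% and 10.9%, with overlapping intervals. Itgb2, the beta chain that pairs with CD11b, was found in 97.2% against 91.3% of the WT and 98.6% against 91.02% of the PD-1-/- cells at mean levels of 690.4 against 489 RPKM and 611 against 439 RPKM. Nearly every NK cell of either kind held this chain, so that its difference lay in the level. Prdm1 and Tbx21, which encode the factors Blimp-1 and T-bet of NK cell maturation, had log2 ratios of 0.54 on the WT plate and 0.33 on the PD-1-/- plate and of 0.27 on the WT plate and 0.32 on the PD-1-/- plate. Zeb2, which acts with T-bet, and Cx3cr1, a receptor of circulating mature cells, were too low to be compared by the rule. Zeb2 was found in 14.1% of the WT and 26.4% of the PD-1-/- S1pr5 cells, against 11.7% and 8.98% of the comparison cells, with log2 ratios of -0.18 on the WT plate and 1.63 on the PD-1-/- plate. Cx3cr1 stood above 0 in 0 S1pr5 cells of the WT and 8 of the PD-1-/- plate, and in 1.30% and 2.40% of the comparison cells.

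Among effector genes, those of perforin and granzyme A were higher in S1pr5 cells, most on the PD-1-/- plate. Of 10 compared cytotoxic granule genes, 4 were higher on both plates (Fasl, Gzma, Nkg7 and Prf1), Srgn was lower on both and 5 had opposite directions. Among all genes compared, 24.8% were higher and 29.9% lower on both plates. Perforin transcript (Prf1) was found in 97.2% against 88.7% of the WT and 97.2% against 87.4% of the PD-1-/- S1pr5 and comparison cells at mean levels of 1458 against 1169.8 RPKM and 1818 against 1129 RPKM. Granzyme A (Gzma) averaged 10065 against 8931 RPKM in WT, a log2 ratio of 0.17, and 16986 against 8561 RPKM in PD-1-/-, a log2 ratio of 0.99. Granzyme B (Gzmb) had opposite signs, -0.30 on the WT plate and 0.41 on the PD-1-/- plate. Of the 8 NK-like markers 7 were higher on both plates, and Ncr1, which encodes the activating receptor NKp46, averaged 1797 against 1314 RPKM in WT and 1959 against 1257 RPKM in PD-1-/-. Eomes, the factor that distinguishes NK cells from ILC1, stood at near-equal means of 95.9 against 95.4 RPKM and 98.4 against 98.1 RPKM. Ccl5, the chemokine stored by mature cytotoxic cells, averaged 8394 against 5872 RPKM in WT and 11504 against 5347 RPKM in PD-1-/-, while the other 4 compared cytokine genes (Ccl3, Ccl4, Ifng and Xcl1) had lower means in S1pr5 cells on both plates. The shares of Ccl3 and Ccl4 went the other way, with 21.1% against 19.6% in WT and 36.1% against 19.8% in PD-1-/- for Ccl3 and 33.8% against 24.3% and 51.4% against 28.1% for Ccl4. With the mean of log2 values 2 of the 5 cytokine genes were higher and 1 lower on both plates, with list medians of -0.10 on the WT plate and 1.23 on the PD-1-/- plate, so that the direction of this list changed with the kind of mean.

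**Figure D3:**
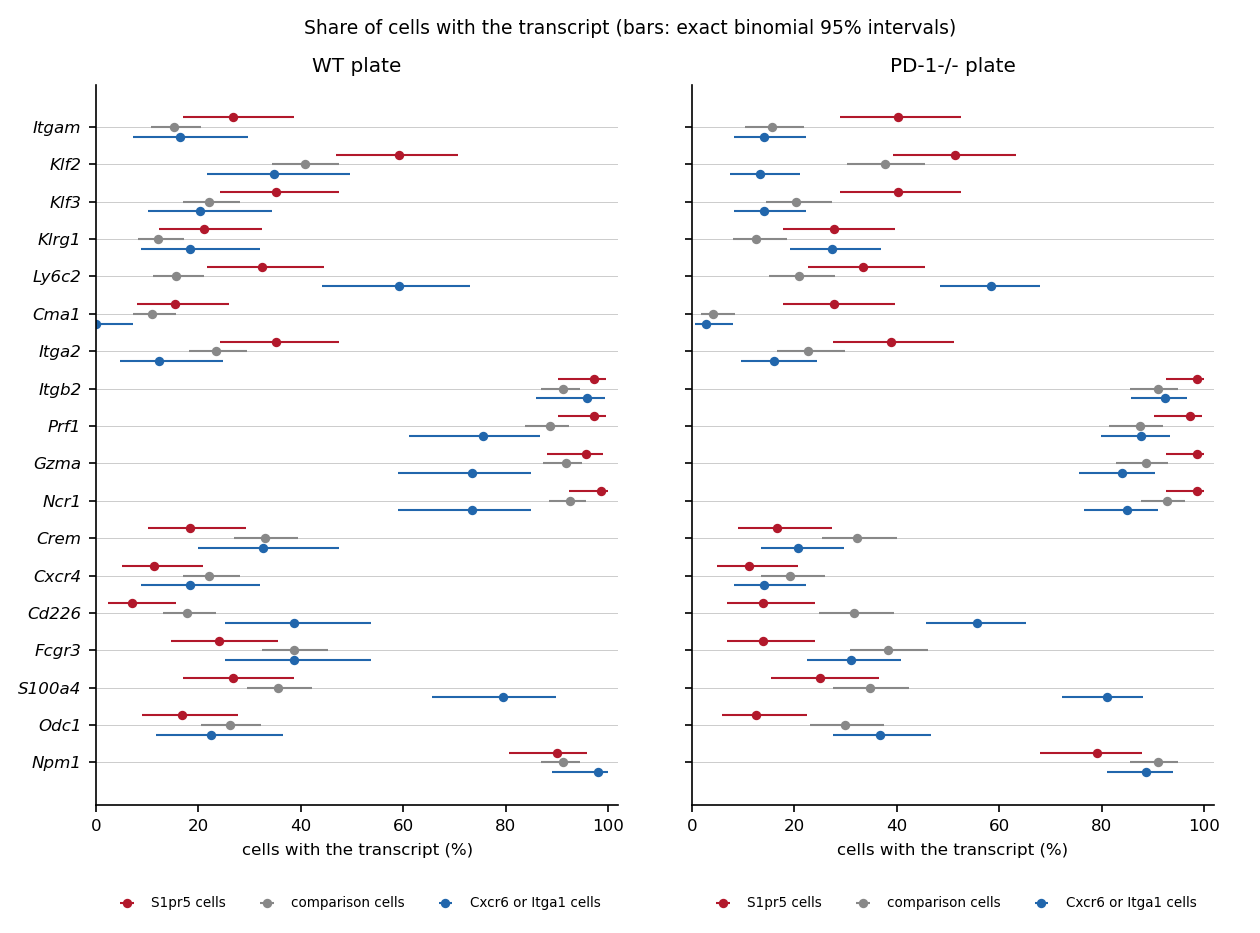
Share of cells with 18 transcripts of the gene lists and counted genes (chosen after their values were seen) in S1pr5 cells (red), comparison cells (gray) and cells with Cxcr6 or Itga1 but no S1pr5 (blue) on the WT and PD-1-/- plates; bars are exact binomial 95% intervals. Itgam was found in 26.8% and 40.3% of the S1pr5 cells and Fcgr3 in 23.9% and 13.9%.

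Of the 23 lower genes, the 12 with the largest differences on both plates were Snord47, Tspan4, Crem, Cxcr4, Echs1, Anxa4, Plac8, Trf, Ankrd13c, Cd3d, Ppa1 and Snord72. Crem, a cyclic AMP-responsive factor gene, was found in 18.3% (95% interval 10.1 to 29.3%) of the WT S1pr5 cells and 33.04% of the comparison cells (27.002 to 39.5%), and in 16.7% (95% interval 8.92 to 27.3%) and 32.3% (25.3 to 39.997%) in PD-1-/-, at mean levels of 44.7 against 116.7 RPKM and 38.5 against 128.1 RPKM. The share intervals of Crem overlapped on both plates. Cxcr4, the receptor that holds lymphocytes in bone marrow, was found in 11.3% against 22.2% of the WT and 11.1% against 19.2% of the PD-1-/- cells, and its mean was 4.25 against 12.4 RPKM and 4.39 against 25.8 RPKM. In cells that held Cxcr4 its highest level was 115.2 and 73.3 RPKM in S1pr5 cells and 379.1 and 607 RPKM in comparison cells. The highest Cxcr4 values thus lay among comparison cells, and the share intervals overlapped. Plac8 was found in 7.04% against 14.8% and 11.1% against 29.9%, Tspan4, a tetraspanin gene, in 5.63% against 13.9% and 6.94% against 16.2%, and Echs1, an enzyme of mitochondrial fatty acid oxidation, in 8.45% against 26.1% and 16.7% against 21.6%. Only for Plac8 in PD-1-/- and Echs1 in WT did the intervals of these 3 genes lie apart. Snord47, a small nucleolar RNA, rested on single cells, since its highest level was 18069 RPKM in 1 WT comparison cell and 625 RPKM in WT S1pr5 cells. Cd3d, with 4 of 71 WT and 5 of 72 PD-1-/- S1pr5 cells, had a log2 ratio of -1.19 on the WT plate and -4.86 on the PD-1-/- plate, while Cd3g had 0.83 on the WT plate and -2.77 on the PD-1-/- plate.

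Fcgr3 and Cd226 had lower means in S1pr5 cells on both plates. Fcgr3, which encodes CD16, the Fc receptor of antibody-dependent killing, was found in 23.9% (95% interval 14.6 to 35.5%) of the WT S1pr5 cells against 38.7% (32.4 to 45.3%) of the comparison cells, and in 13.9% (95% interval 6.87 to 24.1%) against 38.3% (30.9 to 46.2%) in PD-1-/-, where the intervals lay apart. Its log2 ratio was -0.98 on the WT plate and -1.22 on the PD-1-/- plate, short of 2-fold in WT. Cd226, which encodes the activating receptor DNAM-1 and is one of the 23 lower genes, was found in 5 S1pr5 cells of the WT and 10 of the PD-1-/- plate, 7.04% against 17.8% and 13.9% against 31.7% of the comparison cells. Of the 14 compared genes of the other NK receptor list, 7 were higher on both plates (Cd96, Klrb1c, Klrc2, Klrg1, Klrk1, Ncr1 and Slamf7) and 4 were lower (Cd226, Fcgr3, Klrd1 and Tigit), beside 24.8% and 29.9% of all genes compared. The differences of Klrd1 and Tigit were small, with log2 ratios of -0.03 on the WT plate and -0.03 on the PD-1-/- plate and of -0.04 on the WT plate and -0.14 on the PD-1-/- plate. Of 6 compared Ly49 receptor genes, whose near-identical copies can share reads, 4 were higher on both plates, among them Klra23 with means of 830.2 against 599.6 RPKM and 742 against 559 RPKM, and Klra1 was lower on both.

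The list of tissue-resident NK cell and ILC1 genes, which leaves out the 2 of the rule, held few genes high enough to be compared. Of 22 such genes on the list, 5 could be compared, and 4 were lower on both plates (Cd69, Il21r, Rgs1 and Rgs2), while Ctse, which encodes cathepsin E, had a log2 ratio of 0.73 on the WT plate and -0.42 on the PD-1-/- plate. Among all genes compared, 29.9% were lower on both plates. Rgs1, a brake on chemokine receptor signaling, averaged 75.2 against 275.4 RPKM in WT and 187.1 against 210.1 RPKM in PD-1-/-, with single comparison cells as high as 9637 RPKM. The genes too low to be compared were not all lower, and Rora, a nuclear receptor gene of innate lymphoid cells, had a log2 ratio of 0.01 on the WT plate and 0.28 on the PD-1-/- plate. Itgb3, the beta chain of the vitronectin receptor, was among the genes too low to be compared and was found in 5 S1pr5 cells of the WT and 5 of the PD-1-/- plate, 7.04% against 15.2% and 6.94% against 29.3% of the comparison cells. Amica1, an adhesion molecule gene, was found in 4 of 71 and 1 of 72, and Lag3, an inhibitory receptor gene, in 4 of 71 and 9 of 72. These 3 genes and Rora were picked from those too low to be compared after their values were seen.

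Of the other 4 compared genes of the S1P pathway, S1pr1 had a lower mean in S1pr5 cells on both plates and S1pr4, Sphk2 and Sgpl1 a higher one. S1pr1, the receptor by which T and B cells leave lymphoid organs, was found in 11.3% of the WT and 15.3% of the PD-1-/- S1pr5 cells and in 16.96% and 14.4% of the comparison cells, with a log2 ratio of -0.82 on the WT plate and -0.29 on the PD-1-/- plate. S1pr4, a receptor of many leukocytes, was found in 49.3% against 46.5% and 51.4% against 47.9%, with overlapping intervals on both plates. The S1P lyase gene Sgpl1 and the kinase gene Sphk2 had log2 ratios of 0.01 on the WT plate and 0.04 on the PD-1-/- plate and of 0.41 on the WT plate and 0.20 on the PD-1-/- plate. Of the 9 egress and homing genes compared, Klf2 and Klf3 were higher on both plates, 5 were lower on both, Cxcr4 and Gpr183 among them, and Cxcr3 and P2ry14 had opposite directions. Among all genes compared, 24.8% were higher and 29.9% lower on both plates. Gpr183, a receptor for oxysterols that positions lymphocytes, was found in 6 of 71 and 2 of 72 S1pr5 cells, 8.45% against 13.04% and 2.78% against 15.6% of the comparison cells.

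Genes of biosynthesis were lower as a group. Of 11 genes on the biosynthesis and MYC-type list, all of which could be compared, 10 had a lower mean in S1pr5 cells on both plates and Ran had opposite directions, with a median log2 ratio of -0.38 on the WT plate and -0.47 on the PD-1-/- plate, against a background of 29.9% lower on both plates. Myc, which drives ribosome production and growth, was found in 33.8% against 44.8% of the WT and 37.5% against 49.7% of the PD-1-/- S1pr5 and comparison cells at means of 48.9 against 90.8 RPKM and 74.1 against 97.4 RPKM, and its share intervals overlapped on both plates. Odc1, the first enzyme of polyamine synthesis, was found in 16.9% against 26.1% and 12.5% against 29.9%, with intervals that overlapped in WT and lay apart in PD-1-/- by 5.88 to 22.4% and 23.1 to 37.5%. The nucleolar genes Npm1 and Ncl had log2 ratios of -0.38 on the WT plate and -0.81 on the PD-1-/- plate and of -0.32 on the WT plate and -0.68 on the PD-1-/- plate. Of 9 compared glycolysis genes, 7 were lower on both plates, Eno1 was higher on both and Tpi1 had opposite directions, with a median log2 ratio of -0.10 on the WT plate and -0.33 on the PD-1-/- plate. Ldha, lactate dehydrogenase A, was found in 77.5% against 86.96% and 77.8% against 86.2%, again with overlapping intervals. The lower number of detected genes in the PD-1-/- S1pr5 cells moved in the same direction: 67.5% of all genes compared had a lower share in S1pr5 cells on that plate and 53.2% on the WT plate. Comparison cells were also weighted to the S1pr5 cells' distribution over 5 bins of 500 detected genes. Then 10 of 11 biosynthesis genes were again lower on both plates, and the glycolysis count was 5 of 9. The biosynthesis medians were smaller in size, -0.29 on the WT plate and -0.33 on the PD-1-/- plate. After thinning, 7 of the 9 biosynthesis genes with recovered reads were lower on both plates. The cause was not tested.

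**Figure D4:**
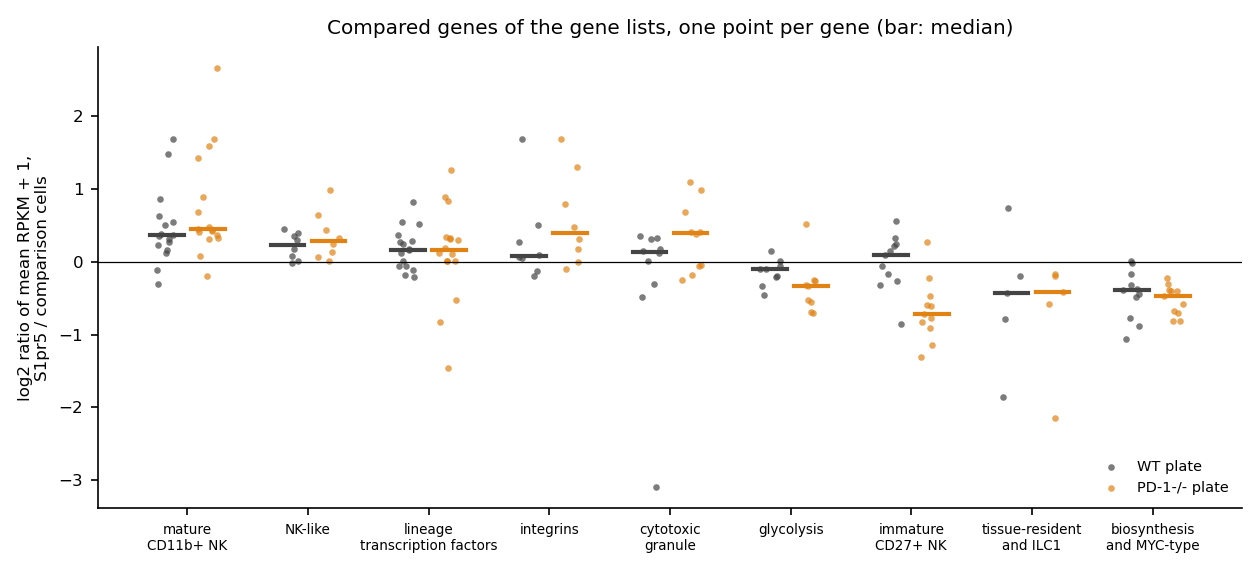
Log2 ratio of mean RPKM + 1, S1pr5 over comparison cells, for each compared gene of 9 lists on the WT (dark) and PD-1-/- (orange) plates, one point per gene with bars at the list median. Medians of the mature CD11b+ NK list were 0.36 on the WT plate and 0.45 on the PD-1-/- plate and those of the biosynthesis list -0.38 on the WT plate and -0.47 on the PD-1-/- plate.

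The lists of lineage factors and integrins held more genes with higher than with lower means, and the remaining lists were divided. The counts below stand beside 24.8% higher and 29.9% lower on both plates among all genes compared. Of 16 compared lineage factor genes 9 were higher on both plates, with medians of 0.17 on the WT plate and 0.16 on the PD-1-/- plate, and in rows I to P alone the medians were 0.02 on the WT plate and 0.16 on the PD-1-/- plate. Foxo1, an upstream activator of Klf2, had a log2 ratio of 0.52 on the WT plate and 0.19 on the PD-1-/- plate, and Ikzf1 of 0.17 on the WT plate and 0.84 on the PD-1-/- plate. Of 8 compared integrin genes 5 were higher on both plates (Itga2, Itga4, Itgal, Itgam and Itgb2) and 0 lower, and Itga2, which encodes CD49b, the integrin of conventional NK cells, was found in 35.2% against 23.5% of the WT and 38.9% against 22.8% of the PD-1-/- S1pr5 and comparison cells. The integrin medians, which include Itgam, were 0.08 on the WT plate and 0.40 on the PD-1-/- plate in all rows and -0.31 on the WT plate and 0.39 on the PD-1-/- plate in rows A to H alone. Of 11 compared cytokine receptor genes 3 were higher (Il10ra, Il18rap and Il2rb) and 4 lower. The immediate early list held 2 higher and 3 lower genes among 6, the interferon-stimulated list 0 higher and 2 lower among 4, and the survival list 1 higher and 1 lower among 6. Bst2, an interferon-induced surface protein gene, was found in 18.3% against 25.2% and 9.72% against 23.4%.

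Immature CD27+ NK cell genes had a list median near 0 on the WT plate and below it on the PD-1-/- plate. Of 11 compared genes of that list, 5 were lower in S1pr5 cells on both plates (Cd27, Emb, Ltb, Thy1 and Xcl1) and Tnfrsf9 was higher on both, and the median log2 ratio was 0.09 on the WT plate and -0.72 on the PD-1-/- plate. Among all genes compared, 24.8% were higher and 29.9% lower on both plates. Tcf7, which encodes the factor TCF-1 of early NK cells, was found in 50.7% against 55.7% of the WT and 26.4% against 49.7% of the PD-1-/- S1pr5 and comparison cells, with intervals of 16.7 to 38.1% and 41.9 to 57.5% on the latter plate. Tcf7 was thus close to its comparison level in WT and below it in PD-1-/-. Emb, which encodes embigin, was found in 60.6% against 65.2% and 38.9% against 69.5%, and Ltb, lymphotoxin beta, in 54.9% against 60.4% and 36.1% against 56.3%. Xcl1, a chemokine that attracts cross-presenting dendritic cells, was found in 74.6% against 75.2% and 50% against 70.1%, and its mean was lower in S1pr5 cells on both plates, 855 against 1541 RPKM and 641 against 1206 RPKM. Ctla2a was found in 87.3% against 90.4% and 72.2% against 89.8%. For these 5 genes the share intervals lay apart in PD-1-/- and overlapped in WT. Whether the 2 plates differ in these genes was not tested.

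Against the resident-type cells, those with Cxcr6 or Itga1 and no S1pr5 (13.6% of the kept WT and 28.96% of the kept PD-1-/- cells), S1pr5 cells had higher means of Klf2, Itga2, Ncr1 and Eomes and lower shares of S100a4 and Cxcr3. The resident-type cells held CD3 transcripts more often, 44.9% in WT and 37.7% in PD-1-/-, and share no cell with the comparison cells, while the S1pr5 cells are the same in both contrasts. Cma1 was found in 0% of the 49 WT resident-type cells, which allows a share of up to 6.12% by the 3-cell limit and 7.25% by the exact interval, and in 2.83% of the PD-1-/- ones. Klf2 was found in 34.7% (95% interval 21.7 to 49.6%) and 13.2% (95% interval 7.41 to 21.2%) of them, and the log2 ratios of S1pr5 over resident-type cells were 1.14 and 2.39 for Klf2, 1.65 and 2.13 for Itga2, 1.03 and 0.88 for Ncr1 and 0.85 and 1.69 for Eomes, WT first. S100a4, a calcium-binding protein gene of motile and effector-memory cells, was found in 26.8% and 25% of the S1pr5 cells and in 79.6% and 81.1% of the resident-type cells, and Cxcr3, a receptor for interferon-induced chemokines, in 40.8% and 30.6% against 63.3% and 69.8%. Ly6c2 and Klrg1 did not follow this order. Ly6c2 was found in 59.2% and 58.5% of the resident-type cells, more often than in S1pr5 cells, and the log2 ratio of Klrg1 was -0.17 and 0.52.

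Between the genotypes, S1pr5 cells of the PD-1-/- plate held Tcf7 and Xcl1 less often and Zfp36 more often than S1pr5 cells of the WT plate. The list genes named here were picked after their values were seen. Of 5319 genes compared among S1pr5 cells, 5.49% had at least a 2-fold higher mean and a higher share in PD-1-/- cells, and 5.26% (280 genes) had at least a 2-fold lower mean and a lower share. Of these, 8 higher and 8 lower genes, 2.74% and 2.86%, were past 2-fold in the same direction between the comparison cells of the plates. The share of all 5319 genes past 2-fold between comparison cells was not computed. This overlap therefore has no background beside it and does not show that the differences were particular to S1pr5 cells. Tcf7 was found in 50.7% (95% interval 38.6 to 62.8%) of the WT and 26.4% (95% interval 16.7 to 38.1%) of the PD-1-/- S1pr5 cells, Xcl1 in 74.6% (95% interval 62.9 to 84.2%) and 50% (95% interval 37.98 to 62.02%), and both pairs of intervals lay apart. Emb was found in 60.6% and 38.9%, Ltb in 54.9% and 36.1% and Ctla2a in 87.3% and 72.2%, with intervals that overlapped. In comparison cells the same genes were closer between the plates: Tcf7 55.7% and 49.7%, Emb 65.2% and 69.5%, Ltb 60.4% and 56.3%. Cx3cr1 was found in 0 of 71 WT S1pr5 cells, which allows a share of up to 4.23% by the 3-cell limit and 5.06% by the exact interval, and in 8 of 72 PD-1-/- S1pr5 cells, 11.1% (95% interval 4.92 to 20.7%). The 2 exact intervals overlapped. Gzma averaged 10065 RPKM in WT and 16986 RPKM in PD-1-/- S1pr5 cells, a log2 ratio of 0.76, against -0.06 between the comparison cells. Zfp36, a factor that degrades cytokine mRNAs, was found in 33.8% (95% interval 22.997 to 46.01%) and 62.5% (95% interval 50.3 to 73.6%), and Ccl4 in 33.8% and 51.4%. The mean of Ccl4 differed alike in both kinds of cells, by a log2 ratio of 1.08 between S1pr5 cells and 1.07 between comparison cells of the plates. For Zfp36 these ratios were 1.19 and 0.51, and for Xcl1 -0.41 and -0.35, so that comparison cells differed in the same direction. The S1pr5 level itself, on which the cells were selected, averaged 211.7 RPKM in WT and 193.7 RPKM in PD-1-/- cells. These differences are between 2 pools and 2 plates, whose S1pr5 cells also differed in reads and detected genes, as given above, and the part of these in them was not tested.

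**Figure D5:**
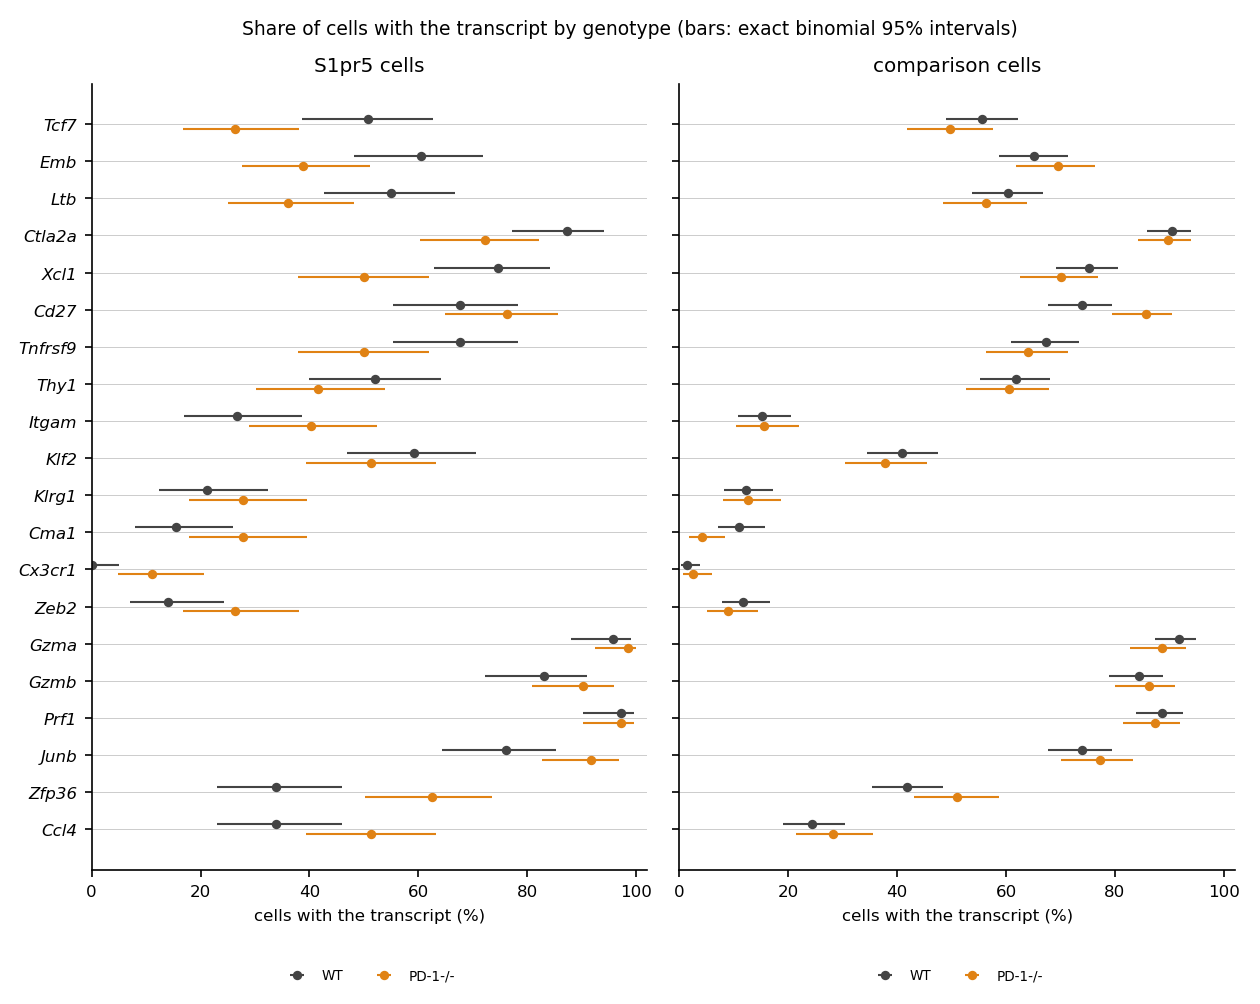
Share of cells with 20 list transcripts (chosen after their values were seen) in WT (dark) and PD-1-/- (orange) S1pr5 cells (left) and comparison cells (right); bars are exact binomial 95% intervals. Tcf7 stood at 50.7% and 26.4% in S1pr5 cells and at 55.7% and 49.7% in comparison cells.

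The 6 counted genes with the largest higher fold in PD-1-/- S1pr5 cells were Mettl3, Ccl3, N4bp2l1, Plekhf2, 2410004B18Rik and Agfg1, and the 6 with the largest lower fold were Hist1h4m, Mfsd8, Lrif1, Gatc, AI987944 and Tango6. Hist1h4m, a histone H4 gene, was found in 21.1% of the WT and 1.39% of the PD-1-/- S1pr5 cells, a log2 ratio of -5.38, and in the comparison cells it was found in 27.4% and 0.599%, a log2 ratio of -5.97. Ccl3, a chemokine that attracts myeloid cells, was found in 21.1% and 36.1% of the S1pr5 cells with means of 48.9 and 367.9 RPKM, the latter with 1 cell at 10589 RPKM. Mettl3, the catalytic subunit of the m6A RNA methyltransferase, was found in 5 of 71 and 14 of 72 S1pr5 cells, and Lrif1 in 19 of 71 and 2 of 72. For the 11 genes other than Hist1h4m the log2 ratio between comparison cells lay between -1.04 and 1.71.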

How the data were processed

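Single-cell RNA-seq values of 768 wells in 2 plates of 384 were used as deposited: the authors gave RPKM per gene and well in 1 table per genotype. The submitters' processing notes name TopHat and Cufflinks and the builds mm9 and mm10, with neither a version nor a role given in the sources used here, and how reads of near-identical genes were shared is not given in them either. Of 24490 gene entries, 279 symbols stood on more than 1 entry. No column of values was left without a sample. Genes found in at least 3 wells (14761) were counted per well, and wells with 1000 to 3500 were kept. No doublet caller was run, and the protocol does not mark strand.

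Membership was called per well from S1pr5, Cxcr6 and Itga1, which gave 143 S1pr5 cells of 726 kept wells (71 of 360 WT and 72 of 366 PD-1-/-), 230 WT and 167 PD-1-/- comparison cells, and 49 and 106 resident-type cells. The members, gene lists and comparisons were chosen with earlier results of these data known. Means over cells were compared per plate as log2 of mean RPKM + 1. A gene was compared where it averaged 10 RPKM or more and occurred in 10% or more of both kinds of cells combined, and counted with at least a 2-fold difference and a share in the same direction. With 1 pool per genotype no test was run across samples. List genes could be named, as could the first 12 counted in each direction, ranked by the smaller of the 2 plates' log2 ratios, and the first 6 between genotypes. Low RPKM values were whole multiples of the worth of 1 read for 99.6% of 667934 values (relative tolerance 0.0003), which gave reads for 9443 genes, and these reads were used to thin cells to 100000. A count test was not run, since wells of 1 pool are not replicates. Recovered reads held a median of 84.2% of a kept well's RPKM. The scripts were tested on simulated data. In these the changed genes moved far beyond the 2-fold cut, so that recovery of differences near that cut was not tested. Alternatives covered the limits on cells, the membership level, CD3 and cycling cells, plate rows, depth, detected genes, scaling, pseudocount, the filter on low values and the kind of mean. Python 3.11.15, numpy 2.4.6, pandas 2.3.3, scipy 1.17.1 and matplotlib 3.10.9 were used.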

Additional observations from a re-analysis of the deposited data

Results flagged for a closer look

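Among the list genes compared, 3 had log2 ratios of opposite sign and beyond 0.5 on each plate between S1pr5 and comparison cells, and the difference between the plates was not tested. Gzmc, a granzyme gene of activated NK cells, had -3.10 on the WT plate and 1.09 on the PD-1-/- plate. It stood above 0 in 13 S1pr5 cells of the WT and 11 of the PD-1-/- plate at means of 34.4 and 189.3 RPKM. Klra8, which encodes the activating receptor Ly49H, had -0.60 on the WT plate and 1.91 on the PD-1-/- plate, and was found in 8 of 71 WT and 15 of 72 S1pr5 cells. Myb, a factor gene of immature cells, had 0.56 on the WT plate and -0.77 on the PD-1-/- plate, and was found in 11 of 71 and 8 of 72 S1pr5 cells.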

How the results depend on the processing

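No paired analysis was possible because each genotype was 1 pool of cells and the numbers in the labels count wells. The share of S1pr5 cells stayed between 18.3 and 21.1% in WT and between 18.8 and 22.3% in PD-1-/-, within counting error of the value given in each of the 8 alternatives run for it. The numbers of genes past 2-fold depended on the processing, given here as percent of the genes compared under each setting. The 5 higher genes (0.0979%) became 0.159% without cells with CD3 transcripts, 0.499% in rows A to H alone, 0.381% in rows I to P alone, 0.0587% with a pseudocount of 10 RPKM, 0.593% without a filter on low values and 0.157% with the mean of log2 values. The 23 lower genes (0.450%) became 1.89%, 1.36%, 0.117% and 2.17% under the same rows, pseudocount and filter settings, 0.299% with each gene capped at its 99th percentile and 0.157% with the mean of log2 values. The genes higher in PD-1-/- S1pr5 cells (5.49%) became 11.5%, 8.99%, 1.97% and 11.6% under rows A to H, rows I to P, the pseudocount and no filter, and 1.33% with the mean of log2 values, and the lower ones (5.26%) became 11.6%, 11.3%, 2.01% and 12.7% under the first 4. In 55 of 76 alternatives of these counts and shares the count stayed within 1.5 times or the share within its interval. A count that stayed does not mean that the same genes were counted. With the mean of log2 values, 2 of the 5 higher and 2 of the 23 lower genes were counted again. The genes lower in PD-1-/- S1pr5 cells stayed at 4.85% there, yet only 52 of the 280 were counted again. With 10 RPKM as the membership level, 10 of the 23 lower genes were counted again. Some of the 76 alternatives could not move. The wider limits on detected genes left the same S1pr5 cells, and the weighting touched comparison cells only. The counts between genotypes thus stayed at 5.49% and 5.26% under both by construction. Rows hold fewer cells and no filter adds genes by construction, and for the other settings the cause was not tested.

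Itgam and 2010012O05Rik were counted again in 14 of 15 alternatives, Ly6c2 in 13, Cpsf2 in 10 and Klf3 in 7, and all 5 were higher on both plates in each of the 15. Among the lower genes this ran from 4 of 15 alternatives for Desi2 to 13 of 14 for Crem. Cd226 and Spp1 were counted again in 5 of 14, S100a4 in 7 of 15, Cxcr4 in 9 of 15 and Plac8 in 11 of 15. Some lower genes turned on 1 plate. In WT cells, Cd226 was 0.073 and Cd3d 0.57 on the log2 scale in rows I to P, Snord47 was 0.32 and Snord72 0.00097 after thinning, Snord72 was 0.28 with comparison cells weighted by detected genes, and Spp1 was 1.14 without cells with Mki67 or Top2a and 0.077 when capped. In PD-1-/- cells, Tnfsf8 was 0.59 in rows A to H. The cause was not tested. With 71 and 72 cells and 1 pool per genotype, a share of 10% rests on a handful of cells.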
